A study of Mus musculus with 92 samples.

Results

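Hmga2, Lin28a and Trim71 are 3 genes whose messenger RNAs are long-known targets of the let-7 microRNAs. They were chosen by symbol, each matched to 1 row of the deposited read count table by its GRCm38 gene identifier, and they make up 3 of the 7886 genes in that table. On the minus strand of GRCm38, Hmga2 (ENSMUSG00000056758.14) spans chr10:120361275-120476469, Lin28a (ENSMUSG00000050966.9) chr4:134003330-134018841 and Trim71 (ENSMUSG00000079259.2) chr9:114507133-114564369, and all 3 are protein-coding. The cells were single blastomeres of 8-cell embryos of wild-type C57BL/6N mice, sequenced with Smart-seq2, a full-length cDNA method for single cells that attaches no molecular identifiers. All embryos had been injected as zygotes: with let-7d (the group Let7d, 18 cells from 3 mouse ids), with let-7e (Let7e, 20 cells from 4), with a microRNA labelled mi699a-5p (21 cells from 4) or with a negative control (NC, 22 cells from 3). The sample titles of all groups begin with IVF, the usual abbreviation of in vitro fertilization. No uninjected embryos were among the groups, so every value compares one injected material with another. The labels leave unsaid what a mouse id stands for (embryo, mother or donor). Mouse ids are not shared between groups, so effects of handling and of the injected material cannot be told apart.

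The let-7 family is a group of microRNAs that accumulate as cells differentiate and are kept low in early embryos and stem cells. A microRNA guides an Argonaute protein to messenger RNAs whose 3′ untranslated region (UTR) pairs with its seed, bases 2 to 8 counted from its 5′ end, and the bound messenger RNA is then translated less and degraded sooner. LIN28A is an RNA-binding protein that holds let-7 in check: it binds let-7 precursors and brings in the uridylating enzymes TUT4 and TUT7, which mark them for decay, while let-7 in turn represses Lin28a. TRIM71, the relative of the worm protein LIN-41, is an RNA-binding ubiquitin ligase of early embryos and stem cells. HMGA2 is an AT-hook protein that binds the minor groove of DNA, is abundant in embryonic tissue and is largely silent in most adult cells.

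The injected let-7d and let-7e are shown because any difference between the 2 groups has to be read against how alike these microRNAs are. Both mature sequences are from RefSeq (GRCm38.p6), at chr13:48536078-48536099 on the minus strand for let-7d and at chr17:17830366-17830387 on the plus strand for let-7e, with the seed in capitals.
mmu-let-7d-5p: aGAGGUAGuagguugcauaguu
mmu-let-7e-5p: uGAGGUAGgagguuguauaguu
They share the seed and differ at 3 positions, A1U, U9G and C16U, with the let-7d base first and positions counted from the 5′ end. This seed is carried by 11 mature mouse microRNAs in RefSeq. The label mi699a-5p is given by name only.

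The 3′ UTRs of the members were searched on the sense strand for the reverse complement of the seed. An 8mer match was CTACCTCA, a 7mer-m8 match CTACCTC without the final A, and a 7mer-A1 match TACCTCA without the leading C, so that no stretch was counted more than once. Hmga2 held 7 matches in a 3′ UTR of 3014 bases (1 8mer, 3 7mer-m8 and 3 7mer-A1), Trim71 held 6 in 5512 bases (4 8mers and 2 7mer-A1), and Lin28a held 2 in 2775 bases, both 8mers. The 8mers are printed because they offer the seed its longest pairing, together with the last pair of Hmga2 matches, which lie within 1 stretch. Each line ends at the base opposite position 1 of let-7, capitals mark the match, and coordinates of the capitals are on the minus strand of GRCm38 (GENCODE M21 transcripts).
Hmga2 match 1, chr10:120364224-120364231: ggcgccgacattcaatttCTACCTCA
Hmga2 match 6, chr10:120361692-120361698: tacaatcaaaacacactaCTACCTCt
Hmga2 match 7, chr10:120361672-120361678: tacctcttaagtcccagtaTACCTCA
Lin28a match 1, chr4:134005189-134005196: agtgcacagcctgttgaaCTACCTCA
Lin28a match 2, chr4:134004551-134004558: tttgagatcgccacaaacCTACCTCA
Trim71 match 1, chr9:114512472-114512479: tacaacattgcctaagtcCTACCTCA
Trim71 match 2, chr9:114512376-114512383: tgaagtgataatttctatCTACCTCA
Trim71 match 4, chr9:114509047-114509054: ttgtttagtatggattttCTACCTCA
Trim71 match 5, chr9:114509021-114509028: attttggcaaaaagttgtCTACCTCA
Such matches are uncommon among the genes of the table. Of 7573 genes with an annotated 3′ UTR, 17.0% held at least 1 match of 7 or 8 bases and 3.78% held an 8mer. Only 4 genes (0.0528%) held as many matches as Hmga2, namely Hmga2 itself, Nr6a1, Nudt12 and D10Wsu102e, whose annotated 3′ UTR is 122583 bases long. As many as in Trim71 were found in 7 genes (0.0924%), and as many as in Lin28a in 257 (3.39%). A match is a description of the sequence and not a measured site of binding.

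**Figure D1:**
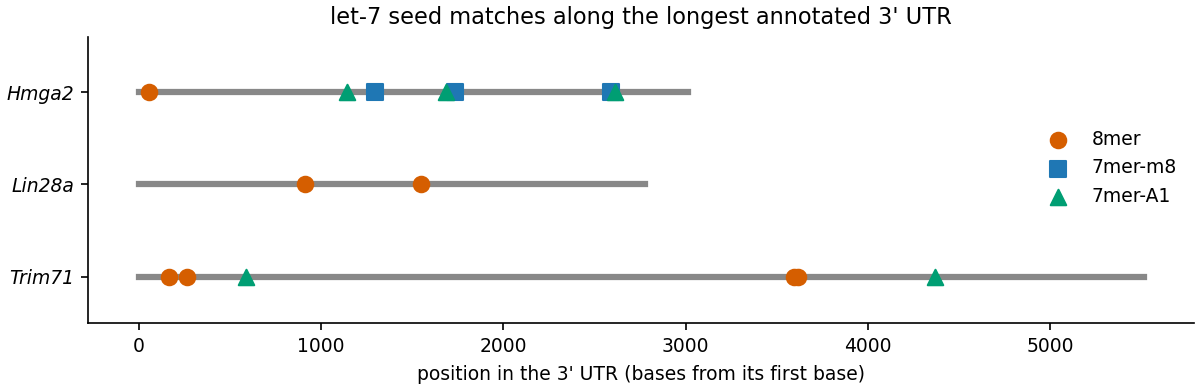
Positions of let-7 seed matches along the longest annotated 3′ UTR of Hmga2, Lin28a and Trim71, in bases from the first base of the UTR. Circles are 8mers, squares 7mer-m8 and triangles 7mer-A1 matches. The 7 matches of Hmga2 spread over its whole UTR, the 2 of Lin28a lie in the middle, and Trim71 has 3 matches near the start and 3 in the distal part.

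Predicted energies of the whole duplex differed between the microRNAs from match to match. By the minimum free energy of the duplex with the 26 bases that end opposite position 1, match 1 of Lin28a paired more strongly with let-7d (-21.6 kcal/mol) than with let-7e (-18.2 kcal/mol). The same held for matches 5 and 6 of Hmga2, at -18.9 and -19.2 kcal/mol with let-7d against -15.9 and -15.7 kcal/mol with let-7e. In contrast, match 1 of Trim71 paired more strongly with let-7e (-19.3 against -15.9 kcal/mol), and so did matches 4 and 7 of Hmga2 (-16.5 and -14.8 against -12.2 and -10.6 kcal/mol). These matches are examples. Over all matches of the 3 genes the pairing was stronger with let-7e at most of them, as it was within Hmga2 and within Trim71. These energies are computed, not measured. They were not split into pairing of the seed and of the other bases, and the duplex was not held to the marked match.

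Each cell carried 1575609 to 4950404 reads, and the sums per mouse id ranged from 6329464 to 24037593 reads over 2 to 8 cells. Of 11 markers of the 8-cell and preimplantation embryo 9 had a row, Pou5f1, Tead4, Cdh1 and Nanog among them, and their summed CPM (reads of a gene per fixed total of reads in the library) was 6759 to 7610 for NC, 5540 to 6758 for Let7d, 6785 to 7624 for Let7e and 6422 to 10190 for mi699a-5p. The Let7d range thus ended just below the NC range, with the highest Let7d sum (6758) next to the lowest NC sum (6759). Among all single genes, 5.96% had every Let7d mouse id below every NC mouse id. The part of this marker list in the member values was not tested. Oocyte markers (6 of 8 with a row) summed to 95.8 to 197 CPM for NC, 132 to 194 for Let7d, 69.2 to 215 for Let7e and 80.8 to 136 for mi699a-5p. For 2-cell markers (2 of 6, Tdpoz1 and Tdpoz4) the sums were 17.3 to 47.9, 46.2 to 69.1, 26.9 to 66.4 and 46.01 to 103 CPM in the same order of groups. None of the markers of cumulus cells, sperm, blood or stroma had a row among the genes analysed. The deposited counts are labelled as taken after a CPM filter, so a missing row does not show that such RNA was absent. The share of reads from ribosomal RNA and mitochondrially encoded genes spanned 12.7 to 19.7% for NC, 5.48 to 11.5% for Let7d, 9.85 to 19.95% for Let7e and 10.8 to 15.99% for mi699a-5p. Summed Y-linked CPM, which follows the sex of the cells, spanned 133 to 341 for NC, 52.4 to 255 for Let7d, 146 to 326 for Let7e and 21.4 to 285 for mi699a-5p.

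RNA of all 3 genes was present at appreciable levels in 8-cell blastomeres. The percentages of genes given next refer to genes that had passed a CPM filter before deposit. Averaged over the 14 mouse ids, Trim71 reached 308 CPM and lay above 92.4% of the genes in the table, Hmga2 reached 173 CPM and lay above 84.7%, and Lin28a reached 65.7 CPM and lay above 63.1%. Divided by the length of the longest coding transcript (3810, 3505 and 9332 bases), the order changed: Hmga2 stood at 45.3 CPM per kilobase, Trim71 at 32.98 and Lin28a at 18.7. These levels rest on many reads: 553 to 4848 reads per mouse id for Hmga2, 301 to 2139 for Lin28a and 951 to 10371 for Trim71.

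At least 1 read of Trim71 was found in 81 of 81 cells (100%, exact binomial 95% interval 95.5 to 100%), of Hmga2 in 80 of 81 (98.8%, 93.3 to 99.97%) and of Lin28a in 79 of 81 (97.5%, 91.4 to 99.7%). These shares were the same after every cell was thinned to a common depth. The intervals treat cells as independent, although cells of a mouse id are not, so they leave out the spread between mouse ids. Reads without molecular identifiers also include amplification copies. The single cell with 0 reads of Hmga2 came from mi699a-5p mouse id 2; it held 1840403 reads, so that 3 reads would have been 1.63 CPM, and it carried 32.6 CPM of Lin28a and 314 CPM of Trim71. The cells with 0 reads of Lin28a came from Let7e mouse id 2 (3 reads would have been 0.861 CPM) and mi699a-5p mouse id 1 (1.86 CPM), and both held Hmga2, at 143 and 211 CPM. No cell lacked more than 1 of the 3 transcripts.

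Of the 3 genes, Hmga2 was the one whose level lay below NC in every let-7 mouse id. In NC the 3 mouse ids gave 204, 221 and 275 CPM, a mean of 233.5 ± 37.2 CPM (SD, n = 3). In Let7d they gave 194, 168 and 123 CPM (162 ± 35.8, n = 3). In Let7e they gave 156, 181, 90.3 and 78.1 CPM (126 ± 50.01, n = 4). All 7 let-7 values lay below the lowest NC value; Let7d mouse id 1 (194 CPM) came nearest to NC mouse id 1 (204 CPM). The lowest levels were those of Let7e mouse ids 3 and 4, which hold 2 and 4 cells. Blastomeres injected with mi699a-5p gave 249, 139.6, 181 and 156 CPM (181.5 ± 48.2, n = 4), a range that overlapped both NC and the let-7 groups.

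**Figure D2:**
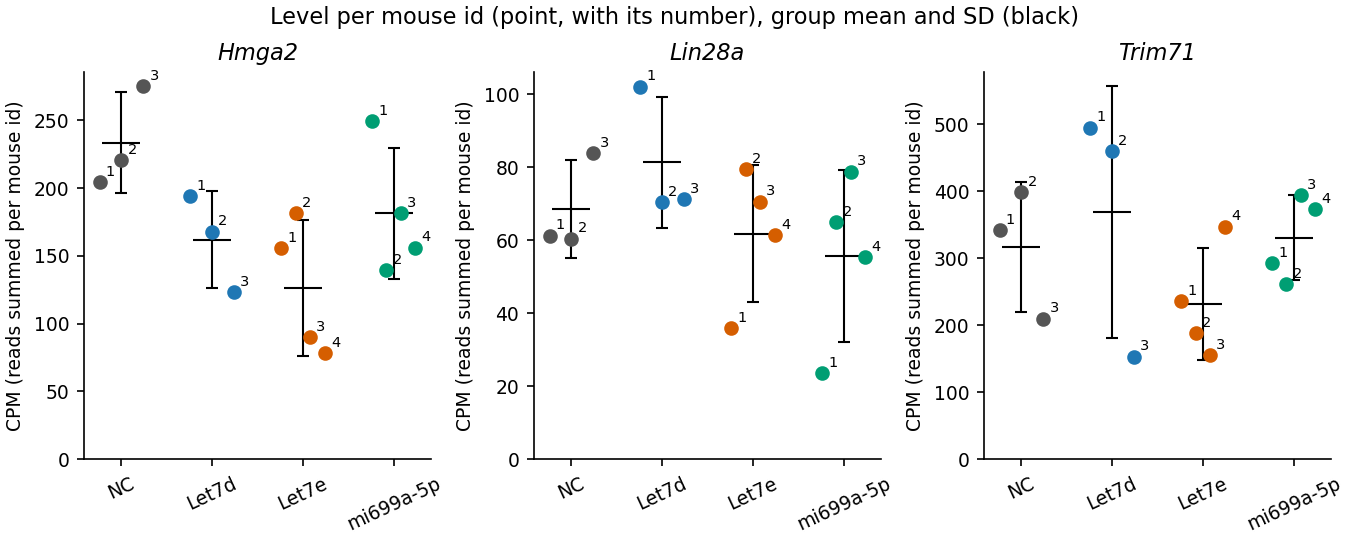
Level of Hmga2, Lin28a and Trim71 in CPM (vertical axis from 0) in each mouse id, by injected material. Points are mouse ids with their number, black bars the group mean and SD over 3 or 4 mouse ids. The 7 let-7 points of Hmga2 lie below its 3 NC points, whereas the groups overlap for Lin28a and Trim71.

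The fold changes of Hmga2 were moderate and did not pass the test across all genes. In edgeR's quasi-likelihood test over 7886 genes the log2 fold change against NC was -0.88 ± 0.30 (SE) in Let7e, a level 0.542 times that of NC, with a 95% interval of -1.50 to -0.26, an unadjusted p of 0.00781 and a Benjamini-Hochberg adjusted p of 0.999. In Let7d it was -0.53 ± 0.32 (edgeR, unadjusted p = 0.114, adjusted p = 1), and for the mean of both let-7 groups -0.71 ± 0.26 (edgeR, unadjusted p = 0.0148, adjusted p = 0.999). Ranked by p, Hmga2 was gene 51 of 7886 in Let7e against NC and gene 95 for the mean. As background, 1.69% of all genes were lower at an unadjusted p under 0.05 in Let7e against NC, and 1.51% for the mean of the let-7 groups.

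Separation of the mouse ids was likewise compared with all genes. Mouse ids of the let-7 group all lay below those of NC for 5.96% of genes in Let7d, for 2.84% in Let7e and for 0.786% for the 7 let-7 mouse ids pooled, and Hmga2 was among them each time. Without TMM scaling, which corrects CPM for the makeup of each library, Let7d mouse id 1 (199.7 CPM) and NC mouse id 1 (196.5 CPM) changed places, and the separation held for Let7e alone. A two-sided exact permutation test on log2 CPM gave p = 0.0333 for the 7 let-7 against the 3 NC mouse ids (difference -0.78), which became p = 0.0583 without TMM factors and on the mean of the cells' CPM, and p = 0.0571 for Let7e against NC (difference -0.96). For Let7d against NC it gave p = 0.1, the smallest that 3 against 3 allows; the smallest possible values were 0.00833 and 0.0286 for the other two. Over the 18 permutation tests of the 3 genes the adjusted p of Hmga2 was 0.514 at the lowest, so no difference held after adjustment.

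The differences of Hmga2 between the let-7 groups and from mi699a-5p did not pass the test either. Its log2 fold change in Let7e against Let7d was -0.35 ± 0.30 (edgeR, adjusted p = 0.953), and that of mi699a-5p against NC was -0.36 ± 0.30 (edgeR, adjusted p = 0.965), with 3 of 4 mouse ids below the NC mean. Set against mi699a-5p, the mean of the let-7 groups gave -0.34 ± 0.24 (edgeR, adjusted p = 0.898; 95% interval -0.85 to 0.17). The comparisons against NC share the same 3 NC mouse ids, of which mouse id 3 was the highest at 275 CPM. Without it the mean let-7 difference was -0.57 ± 0.31 (edgeR, unadjusted p = 0.0805, adjusted p = 0.999), and without Let7e mouse id 3, the one with 2 cells, Let7e against NC stood at -0.75 ± 0.31 (edgeR, adjusted p = 0.999).

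The Hmga2 estimate was recomputed with RNA makeup, sex and depth taken into account. Removing ribosomal RNA and mitochondrially encoded genes before scaling gave -0.89 for Let7e and -0.71 for the mean of the let-7 groups against NC, on the log2 scale. Adjusted for Y-linked CPM the values were -0.87 and -0.74, and with all cells thinned to one depth -0.87 and -0.71. In bulk sums of this kind a lower level in every cell and fewer cells with a high level cannot be told apart, so the single cells are described next.

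In single cells the lower Hmga2 sums of the let-7 groups went with lower medians, and no let-7 cell was at 0. The cells of NC ran from 71.6 through a median of 209 to 600.4 CPM, those of Let7d from 83.8 through 149 to 292 CPM, and those of Let7e from 43.2 through 140.4 to 373 CPM. Those of mi699a-5p ran from 0 through 156 to 530.5 CPM, so a median below that of NC was not particular to the let-7 groups. Of the cells of Let7d 15 of 18 (83.3%) and of Let7e 16 of 20 (80.0%) were below the NC median, as were 15 of 21 (71.4%) of mi699a-5p. Cells of all groups overlapped widely. In mi699a-5p mouse id 2, where 1 cell had 0 and another 530.5 CPM, that top cell supplied 50.9% of the Hmga2 reads; in NC mouse id 2 the top cell, at 600.4 CPM, supplied 30.0%.

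**Figure D3:**
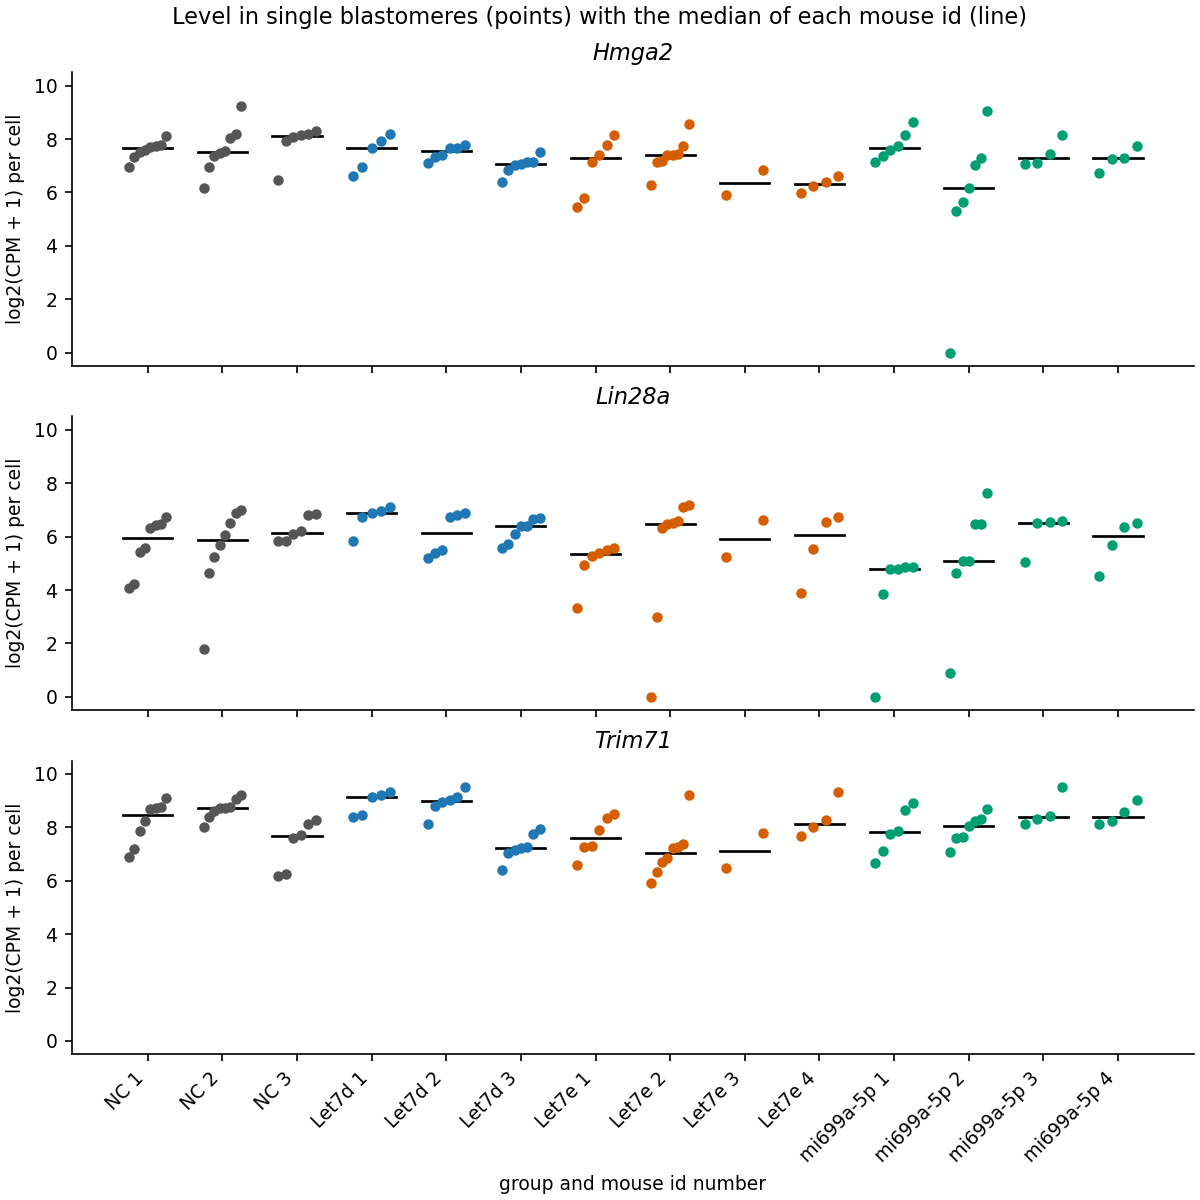
Level of the 3 genes in each of 81 blastomeres, as log2(CPM + 1) on the vertical axis, by group and mouse id. Points are cells, sorted within a mouse id, and lines are medians of mouse ids. Trim71 has no cell at 0, Hmga2 has 1 and Lin28a has 2, and the cells of Let7e mouse ids 3 and 4 are low for Hmga2 together.

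Lin28a, the inhibitor of let-7 maturation, showed no common direction. In NC it was measured at 61.2, 60.5 and 83.9 CPM (68.5 ± 13.3, SD, n = 3), and in Let7d at 102, 70.5 and 71.3 CPM (81.3 ± 18.01, n = 3). In Let7e it was measured at 35.9, 79.5, 70.5 and 61.4 CPM (61.8 ± 18.8, n = 4), and in mi699a-5p at 23.6, 64.9, 78.8 and 55.4 CPM (55.7 ± 23.4, n = 4). All groups overlapped, and the lowest values were mouse id 1 of Let7e and mouse id 1 of mi699a-5p. The log2 fold change against NC was 0.25 ± 0.39 in Let7d, -0.15 ± 0.37 in Let7e and 0.05 ± 0.33 for the mean of both (edgeR, adjusted p of 1, 0.999 and 0.999). The 95% interval for the mean ran from -0.65 to 0.75 on the log2 scale. Let7e was lower than Let7d by -0.40 ± 0.36 and mi699a-5p lower than NC by -0.30 ± 0.36, with edgeR adjusted p of 0.953 and 0.989. Against mi699a-5p the let-7 groups gave 0.35 ± 0.31 (edgeR, adjusted p = 0.95). These values rested on single mouse ids: without mi699a-5p mouse id 1, mi699a-5p against NC was -0.05 and the let-7 groups against mi699a-5p 0.10; without mi699a-5p mouse id 3 they were -0.55 and 0.59. Likewise, Let7e against Let7d was -0.20 without Let7d mouse id 1 and -0.21 without Let7e mouse id 1. Adjusted for Y-linked CPM, Lin28a was at -0.91 ± 0.33 in Let7e against Let7d (edgeR, unadjusted p = 0.0131, adjusted p = 0.987), at 0.66 ± 0.34 in Let7d against NC (edgeR, unadjusted p = 0.0667, adjusted p = 0.999) and at 0.06 ± 0.32 in mi699a-5p against NC.

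Trim71, the RNA-binding ubiquitin ligase with the most 8mers among the 3 genes, had its widest spread within Let7d. In NC its levels were 342, 399 and 209.8 CPM (317 ± 97.0, SD, n = 3). In Let7d they were 495, 459.5 and 153 CPM (369 ± 188, n = 3), so that this group held the highest of the 14 values and, at mouse id 3, one of the lowest. In Let7e they were 236, 189, 155 and 347 CPM (232 ± 83.7, n = 4), and in mi699a-5p 293, 262, 395 and 373 CPM (331 ± 63.4, n = 4). Of the Let7e mouse ids 3 of 4 lay below the NC mean, and all groups overlapped with NC. Its log2 fold change against NC was 0.22 ± 0.37 in Let7d, -0.45 ± 0.35 in Let7e and -0.12 ± 0.32 for the mean (edgeR, adjusted p of 1, 0.999 and 0.999).

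The largest contrast of Trim71 was between the let-7 groups themselves. Let7e was at -0.67 ± 0.35 on the log2 scale against Let7d (95% interval -1.40 to 0.06, edgeR unadjusted p = 0.0694, adjusted p = 0.951). Its size depended on single mouse ids of Let7d: without mouse id 3, the lowest of that group, it was -1.05 ± 0.31 (edgeR, unadjusted p = 0.00323, adjusted p = 0.797), and without mouse id 1, the highest, -0.40 ± 0.39 (edgeR, adjusted p = 0.985). In mi699a-5p Trim71 was close to NC, at 0.06 ± 0.35 (edgeR, adjusted p = 0.996; 95% interval -0.67 to 0.80), and the let-7 groups stood at -0.18 ± 0.29 against mi699a-5p (edgeR, adjusted p = 0.979). In single cells 16 of 20 Let7e cells (80.0%) were below the NC median of 318 CPM, against 8 of 18 (44.4%) in Let7d and 14 of 21 (66.7%) in mi699a-5p. In Let7e mouse ids 2 and 4 the top cell supplied 45.6% and 46.0% of the Trim71 reads.

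**Figure D4:**
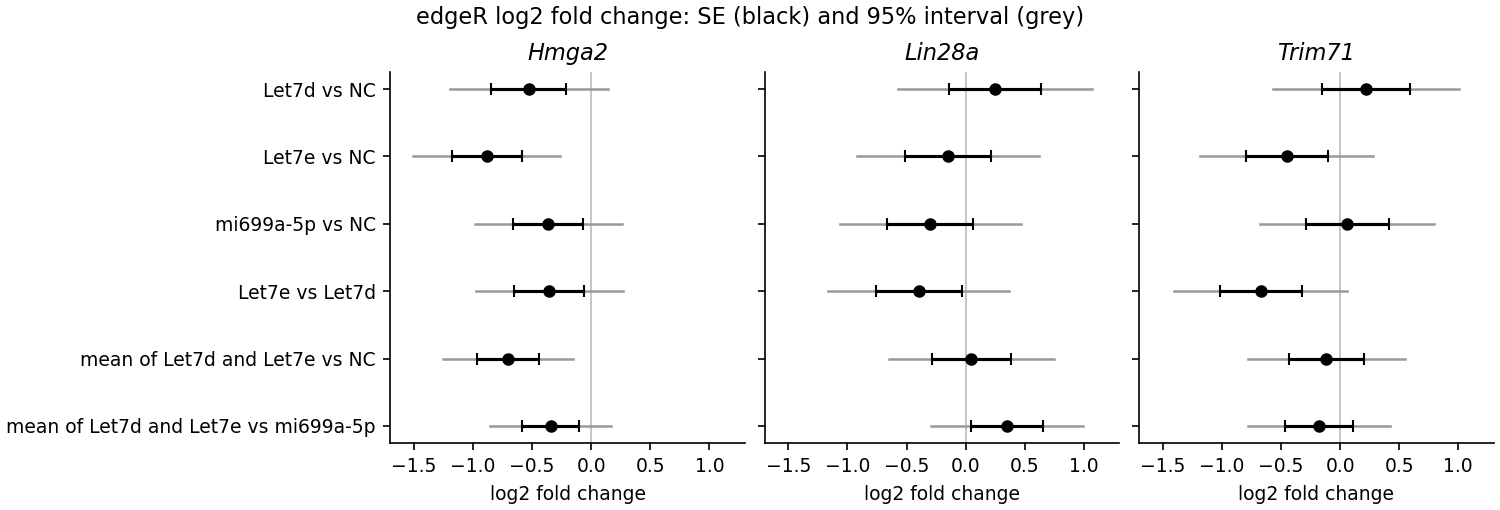
log2 fold change (horizontal axis) of Hmga2, Lin28a and Trim71 in 6 comparisons, from edgeR. Points are estimates, black bars 1 SE and grey lines 95% intervals. The intervals of Hmga2 in Let7e against NC (-1.50 to -0.26) and for the mean of the let-7 groups against NC (-1.26 to -0.16) lie below 0 before adjustment over all genes, and all others include 0.

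None of the 3 genes was called in any of the 6 comparisons at an adjusted p under 0.05, and few genes of any kind were. By edgeR 0.0127% of all genes (1 of 7886) were called in Let7d against NC and 0.0127% for the mean of the let-7 groups against NC, in both cases the gene with the identifier ENSMUSG00000118642.1, named here after its values were seen and without a symbol in the annotation. The share was 0.0% in Let7e against NC, in mi699a-5p against NC, in Let7e against Let7d and in the let-7 groups against mi699a-5p. In those 4 comparisons 317, 434, 425 and 504 genes had an unadjusted p under 0.05 in edgeR, and DESeq2 called 0, 6, 8 and 11 genes.

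Variation within and between mouse ids differed among the 3 transcripts. Between cells of one mouse id the SD of log2(CPM + 1) was 1.04 for Hmga2, 1.44 for Lin28a and 0.69 for Trim71 (67 degrees of freedom). Between mouse id means within a group it was 0.57 for Hmga2, 0.64 for Lin28a and 0.65 for Trim71 (10 degrees of freedom). Between cells Lin28a thus varied most and Trim71 least. The SD of mouse id means also carries spread between cells, because each mean is over 2 to 8 cells, so the SDs of both kinds are not like measures. The cells with 0 reads enter the values of Hmga2 and Lin28a.

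No correlation between the members passed its test. Over the 14 mouse ids, as deviations of log2 CPM from the group mean, Hmga2 and Lin28a gave Pearson's r = -0.25 (permutation p = 0.393, adjusted over 3 pairs 0.925) and Spearman's rho = -0.05 (permutation p = 0.858, adjusted 0.951). For Hmga2 and Trim71 r was 0.05 (permutation p = 0.857, adjusted 0.925) and rho 0.02 (permutation p = 0.951, adjusted 0.951). For Lin28a and Trim71 r was 0.01 (permutation p = 0.925, adjusted 0.925) and rho -0.05 (permutation p = 0.871, adjusted 0.951). Without the 2 mouse ids farthest from the median of the first gene of each pair r was -0.48, 0.39 and -0.04. Across the 81 cells, as deviations from their mouse id, r was -0.20, -0.06 and -0.24 for the same pairs, given as a description because cells of a mouse id are not independent.

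The genes whose log2 CPM followed each member most closely over the 14 mouse ids, among 5697 genes with a mean of at least 20 CPM, were other genes than the members. For Hmga2 they were Fez2 (r = 0.83), Syncrip (0.80), Pdss1 (0.79) and Ssb (0.78). Fez2 stood at 52.5 CPM for NC, against 29.2 for Let7d, 23.4 for Let7e and 26.04 for mi699a-5p. Syncrip encodes an RNA-binding protein and Ssb the La protein, which binds the ends of new RNA polymerase III transcripts. For Lin28a they were Tor1aip2 (0.90), Ehmt2 (0.89), which encodes the histone methyltransferase G9a, AU040320 (0.86) and Sdf4 (0.83). For Trim71 they were Skp2 (0.91), a substrate receptor of a ubiquitin ligase, Ubl3 (0.89), Med6 (0.87) and Thap11 (0.85). The highest r between members by this measure was 0.27, for Hmga2 and Trim71. Group means were not removed here, unlike in the correlations between members above, so these r values include differences between groups. With 14 points and 5697 genes such values are a description.

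Factors that make let-7 or carry out its repression were measured for 21 of 24 symbols on the list. In the mean of the let-7 groups against NC 10 of 21 were below 0, with a median log2 fold change of 0.03 against 0.00 (0.00466) over all genes, of which 49.5% were below 0. At an unadjusted p under 0.05 2 were lower and 1 higher (edgeR; 1.51% and 2.38% of all genes), and 0 passed the adjusted test. The lower ones were Tarbp2, the RNA-binding partner of Dicer (98.0 ± 6.78 CPM in NC, 48.2 ± 16.6 in Let7d, 71.8 ± 7.34 in Let7e, 53.8 ± 11.01 in mi699a-5p), and Tnrc6a, the scaffold that links Argonaute to deadenylases (61.2 ± 6.60, 44.3 ± 5.89, 23.3 ± 12.1 and 49.8 ± 10.2 CPM). Tarbp2 stood at -0.74 ± 0.25 and Tnrc6a at -0.93 ± 0.32 on the log2 scale (edgeR, unadjusted p = 0.00841 and 0.00977, adjusted p = 0.999 for each). Tarbp2 was at -0.87 ± 0.28 in mi699a-5p against NC too (edgeR, unadjusted p = 0.00642). The higher one was Tut7, the uridylating enzyme that acts with LIN28A, at 0.66 ± 0.31 (edgeR, unadjusted p = 0.0475, adjusted p = 0.999), with 38.0 ± 2.25 CPM in NC and 70.7 ± 15.02, 50.9 ± 19.7 and 61.6 ± 14.1 CPM in Let7d, Let7e and mi699a-5p. Lin28b, the paralogue of Lin28a with 5 seed matches of its own, is named after its values were seen; it had 30.6 ± 20.1 CPM for NC, 25.9 ± 5.78 for Let7d, 19.7 ± 10.4 for Let7e and 31.5 ± 11.2 for mi699a-5p, and its log2 fold change for the mean was -0.44 ± 0.46 (edgeR, adjusted p = 0.999).

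Other reported let-7 targets were measured for 32 of 49 symbols, Lin28b again among them. Below 0 were 22 of 32 in the mean of the let-7 groups against NC (median -0.13), 21 of 32 in Let7e (median -0.13) and 16 of 32 in Let7d (median 0.00, -0.00168), beside 49.5%, 48.1% and 49.0% of all genes. In mi699a-5p against NC 19 of 32 were below 0 (median -0.07), beside 45.9% of all genes. These comparisons share the NC mouse ids. In the mean of the let-7 groups against mi699a-5p 18 of 32 were below 0 (median -0.05), beside 53.8% of all genes. For the mean of the let-7 groups 0 of the 32 had an unadjusted p under 0.05 in edgeR, beside 1.51% of all genes lower and 2.38% higher. The 3 with the smallest p were Rrm2, a subunit of ribonucleotide reductase, which was above NC at 0.43 ± 0.21, Bach1, a heme-responsive repressor, at -0.52 ± 0.27, and Cdk6, a cell cycle kinase, at -1.10 ± 0.63 (edgeR, unadjusted p = 0.0571, 0.07 and 0.0951). Bach1 gave 189.8 ± 65.4 CPM for NC, 137 ± 19.5 for Let7d, 128 ± 48.0 for Let7e and 160 ± 31.8 for mi699a-5p. Nr6a1, a nuclear receptor with 8 matches, more than Hmga2, had 17.2 CPM for NC, 8.96 for Let7d, 17.3 for Let7e and 30.7 in mi699a-5p, and Igf2bp1, an RNA-binding protein with 5 matches, had 114, 134, 131 and 119 CPM; both are named here after their values were seen.

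Genes reported to be bound or regulated by LIN28A, TRIM71 or HMGA2 were measured for 13 of 18 symbols, and 7 of 13 were below 0 in the mean of the let-7 groups against NC (median -0.01), beside 49.5% of all genes. At an unadjusted p under 0.05 1 was lower and 1 higher (1.51% and 2.38% of all genes), and 0 passed the adjusted test. Cdkn1a, the cyclin-dependent kinase inhibitor p21 and a reported target of TRIM71, had 320 ± 113 CPM for NC, 162 ± 70.0 for Let7d, 234 ± 64.0 for Let7e and 314 ± 90.4 in mi699a-5p, with a log2 fold change for the mean of -0.72 ± 0.29 (edgeR, unadjusted p = 0.0254, adjusted p = 0.999). Mbnl1, a splicing regulator whose messenger RNA is also a reported TRIM71 target, had 11.2 ± 11.8 CPM for NC, 19.7 ± 13.0 for Let7d, 80.6 ± 79.1 for Let7e and 59.0 ± 39.4 in mi699a-5p (1.82 ± 0.78 for the mean, edgeR, unadjusted p = 0.032, adjusted p = 0.999). Ccnb1, cyclin B1, whose messenger RNA is a reported LIN28A target, was at 0.39 ± 0.19 (edgeR, unadjusted p = 0.0595). The SD of Mbnl1 in Let7e was as large as its mean.

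The number of seed matches was also set beside the fold changes of all genes, as a description. In Let7e against NC 33 of 57 genes with 3 or more matches were below 0 (57.9%, median log2 fold change -0.02), against 48.4% of the 6288 genes with 0 matches (median 0.01, 0.015). In Let7d against NC 23 of 57 (40.4%) were below 0, against 50.4% of those with 0 matches, and in mi699a-5p against NC 15 of 57 (26.3%), against 46.7%. These 3 comparisons share their NC mouse ids. Genes with 3 or more matches had a median 3′ UTR of 5173 bases and those with 0 of 975 bases, so number of matches and length move together and the part of length was not tested. Among the members, the gene with the most matches per kilobase of UTR (Hmga2, 2.32) had the lowest fold change in Let7e, but Trim71 (1.09) and Lin28a (0.72) had intervals that included 0. Hmga2 was also the lowest of the 3 in mi699a-5p against NC (-0.36, with Lin28a at -0.30 and Trim71 at 0.06). In Let7d against NC it stood at -0.53, with Trim71 at 0.22 and Lin28a at 0.25.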

How the data were processed

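Members and lists were chosen with earlier results of these data known. The authors deposited raw counts of reads for each gene in each cell (whole numbers in the table) from Smart-seq2 libraries. The counts are labelled as taken after a CPM filter, and the label gives no cutoff. Gene ranks, shares of genes and detection in cells thus refer to genes that had passed this filter. Per the submitters' processing notes STAR and build GRCm38.p6 were used; the counting program and its use of strand are not given in the sources used here. RPKM values deposited by the authors were read only to check gene lengths: the implied length of a gene differed between cells by a median factor of 223.7, so they were not used. Of 92 labelled cells 82 had a column, and 10 were not analysed here. A pair of Let7d columns from mouse id 2 differed by less than sampling noise (chi-square per gene 1.05, next pair 28.7, 3321 pairs) and was summed as 1 cell, leaving 81.

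Cells of a mouse id were added up, and mouse ids are numbered as in the labels, because cells are not replicates; p-values measure the spread between 14 mouse ids. One edgeR 4.0.16 fit (R 4.3.3) of all 4 groups used TMM factors (0.924 to 1.08), filterByExpr, which removed 0 of 7886 genes, and the quasi-likelihood test with Benjamini-Hochberg adjustment at 0.05, with 10 residual degrees of freedom. The fit was tested on simulated data whose planted changes were larger than those of the members, so effects of their size were not covered. CPM are TMM-scaled, except per-cell CPM, which use the cell's total; log2 CPM used a prior count of 2, and log2 of single cells a pseudocount of 1. The mean of the let-7 groups weights both groups equally in edgeR, whereas permutation tests pooled their 7 mouse ids. Correlations used 100000 resamples (scipy 1.17.1). Seed matches were searched in the longest 3′ UTR of each gene in GENCODE M21, to which 7878 identifiers matched, and duplex energies came from ViennaRNA 2.7.2. Named genes were the 3 with the smallest p of each list in the mean let-7 comparison and the 4 most like each member; the others are marked. Alternatives were DESeq2 1.42.0, limma 3.58.1 on mean CPM of cells, other scalings and filters, thinned cells, covariates, a replicate block and leaving out each mouse id.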

Additional observations from a re-analysis of the deposited data

How the results depend on the processing

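No edgeR fold change of Hmga2, Lin28a or Trim71 crossed the adjusted threshold under any of the alternatives run, and the direction held in 291 of 306 recomputed fold changes, not counting the filters on low counts, which removed no gene. For Hmga2 it held in all of them: leaving out 1 mouse id at a time gave -0.68 to -0.36 (Let7d against NC), -1.11 to -0.71 (Let7e against NC), -0.82 to -0.57 (mean of the let-7 groups against NC), -0.55 to -0.23 (mi699a-5p against NC), -0.58 to -0.18 (Let7e against Let7d) and -0.46 to -0.15 (let-7 groups against mi699a-5p). Its lowest adjusted p over all alternatives was 0.475, by DESeq2 in Let7e against NC. Leaving out 1 mouse id moved Trim71 between -0.049 and 0.60 in Let7d against NC, -0.16 and 0.26 in mi699a-5p against NC, -0.34 and 0.085 for the mean of the let-7 groups against NC, and -0.31 and 0.024 against mi699a-5p. It moved Lin28a between -0.29 and 0.041 in Let7e against NC and between -0.049 and 0.22 for the mean. With the Y-linked level as covariate Lin28a in mi699a-5p against NC turned from -0.30 to 0.061; the larger shifts of Lin28a under this covariate stand beside its values in the results. In the permutation test of Lin28a for the 7 let-7 against the 3 NC mouse ids, the difference of -0.0061 on the log2 scale became 0.049 without TMM factors, 0.036 on the mean of the cells' CPM and 1.64 CPM without the log.

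The count of genes called at an adjusted p under 0.05 was 1 in Let7d against NC and 1 for the mean let-7 comparison. It became 0 in both without TMM factors, with the Y-linked covariate and with a replicate block; 0 in Let7d with only the groups compared; and 0 for the mean with RLE size factors, with limma on mean CPM and without ribosomal RNA and mitochondrial genes. DESeq2 called 3, 6, 8, 5 and 11 genes in Let7d against NC, mi699a-5p against NC, Let7e against Let7d, the mean against NC and the let-7 groups against mi699a-5p. Leaving out 1 mouse id gave 0 to 1 genes in the comparisons of Let7d with NC, of Let7e with Let7d and of the mean with NC, and 0 to 2 in mi699a-5p against NC; the cause was not tested.

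Deviations of same-numbered mouse ids from their group means correlated at -0.13 to 0.13 over genes. Same-numbered pairs were not set against differently numbered ones, so whether the numbers pair the samples was not tested. With the replicate block Hmga2 was -0.57 in Let7d, -0.83 in Let7e and -0.70 for the mean against NC. No correlation between members passed its threshold under any alternative run, and at 5 reads 1 share of cells moved, Lin28a in mi699a-5p, from 95.2% to 90.5%. The match count of Hmga2 was the same in both of its coding transcripts. For Lin28a and Trim71 only 1 coding transcript each had a 3′ UTR that could be searched, so their counts had no alternative. Precision is limited by 3 or 4 mouse ids a group, 1 of them with 2 cells.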
